A study of Homo sapiens with 3 samples.

Results

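The genes described here are 34 genes of retinoic acid signalling: the receptors, the proteins that take up, bind, make, store and break down retinoids, receptor cofactors, and genes known to respond to retinoic acid. They were chosen by symbol from the deposited table of read counts, which held 24424 genes, and all 34 had a row. RNA was sequenced from 3 populations of A375SM, a human melanoma cell line described in the labels as a melanoma cell from skin. All 3 populations were grown in DMEM with fetal bovine serum, were transduced with a lentiviral hairpin vector carrying green fluorescent protein, and were kept as stable populations of fluorescent cells. The shPRAME population carried a hairpin against PRAME (genotype labelled PRAME knockdown), the shBAP1 population one against BAP1 (labelled BAP1 knockdown), and the shEmpty population the control vector (labelled WT). The design text calls that control hairpin non-targeting, while the name shEmpty may also be read as a vector without a hairpin. Which of these it is, is not settled by the sources used here. The labels name no retinoid treatment.

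Each group had 1 library, so the differences below are unreplicated and come without p-values. Ratios are of counts scaled to library size, with exact 95% intervals that cover counting error only. In bulk RNA, fewer cells of a kind and less RNA per cell cannot be told apart. Library totals were 19430130 counts (shEmpty), 14181829 (shBAP1) and 18456328 (shPRAME). PRAME had 6132, 6748 and 1966 counts in the shEmpty, shBAP1 and shPRAME libraries, and its scaled level in shPRAME was 32.9% of that in shEmpty (31.2 to 34.6). BAP1 had 1874, 522 and 1790 counts in the same order, and its level in shBAP1 was 35.2% of that in shEmpty (31.8 to 38.8). Both targets thus kept part of their RNA in their own knockdown library. Of the 8 melanocytic markers, SOX10 had 9482, 5442 and 12019 counts and MITF 5807, 3543 and 2088, while PMEL and MLANA had at most 34 counts in any library. The pigment enzyme genes were highest in shBAP1: TYRP1 had 0, 1037 and 1 counts, TYR 4, 573 and 0, and DCT 192, 1668 and 6. The summed level of the 8 melanocytic markers was 899, 1016 and 816 CPM, a count scaled to the size of its library. The 6 fibroblast markers summed to 41.0, 212 and 721 CPM, mostly COL1A2 in shBAP1 and shPRAME (119, 2529 and 12250 counts). In shEmpty LUM (364, 483 and 399 counts) and PDGFRA (263, 33 and 447) had more counts than COL1A2. PDGFRA was thus lowest in shBAP1, unlike the sum. COL3A1 had 1, 66 and 13 counts, DCN 20, 40 and 49, and COL1A1 at most 23. The 6 immune markers summed to 51.4, 65.2 and 150 CPM, mostly CD68, with CD3E at 0 throughout. The 6 keratinocyte markers summed to 34.5, 53.7 and 27.5 CPM, nearly all KRT10 with KRT1 at 0, and the 5 endothelial markers to at most 1.15 CPM. The part of these markers in the ratios below was not tested.

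Retinoic acid is made from vitamin A. Retinol enters cells with the help of STRA6, is stored as esters by LRAT, is oxidised reversibly to retinal by short-chain dehydrogenases, and retinal is oxidised to retinoic acid by the ALDH1A enzymes. CYP26 enzymes degrade the acid. In the nucleus retinoic acid binds a receptor of the RAR family, which sits on DNA as a dimer with an RXR partner; without ligand the dimer holds corepressors, and with ligand it exchanges them for coactivators. PRAME is known as a repressor of this pathway, and BAP1 is a deubiquitinase that acts on histone H2A.

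The best-known DNA element of an RAR and RXR dimer is a direct repeat of a 6-base core with a spacer of 5 bases, called DR5, and it shows which of the genes carry the textbook recognition sequence at their start. The core searched was AGGTCA or AGTTCA or GGGTCA or GGTTCA, on both strands, in promoter windows of 300 bases (250 before to 50 after a start) from RefSeq on GRCh38.p14. The counts themselves were made on an earlier assembly and are joined to these windows by symbol only. A single core is common in such windows. It occurred in 38.6% of all 35116 windows and in 18 of the 50 windows of the 29 genes that matched by symbol. Counted by gene, at least 1 window held it for 43.7% of all symbols and for 14 of the 29. The DR5 repeat occurs in 0.0883% of windows, 31 in all, and in 2 of the 50 windows of these genes, belonging to RARB and CYP26A1. Repeats with a spacer of 1 base (0.131% of windows) or 2 bases (0.0399%) were in none of the 50. The windows with a DR5 are printed first, and that of STRA6, the gene with the widest range between libraries, is printed for contrast, since it holds single cores but no repeat of these kinds. Capitals mark only the DR5 in RARB and CYP26A1, where any other core stays in lower case (RARB holds another), and the single cores in STRA6. Each window reads 5′ to 3′ on the strand of its gene.
RARB: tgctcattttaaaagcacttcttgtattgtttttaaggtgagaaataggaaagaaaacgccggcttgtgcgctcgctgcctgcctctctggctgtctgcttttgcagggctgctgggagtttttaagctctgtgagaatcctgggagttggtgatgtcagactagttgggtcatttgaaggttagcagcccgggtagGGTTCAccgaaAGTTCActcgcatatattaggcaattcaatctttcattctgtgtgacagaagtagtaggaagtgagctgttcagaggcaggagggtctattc
CYP26A1: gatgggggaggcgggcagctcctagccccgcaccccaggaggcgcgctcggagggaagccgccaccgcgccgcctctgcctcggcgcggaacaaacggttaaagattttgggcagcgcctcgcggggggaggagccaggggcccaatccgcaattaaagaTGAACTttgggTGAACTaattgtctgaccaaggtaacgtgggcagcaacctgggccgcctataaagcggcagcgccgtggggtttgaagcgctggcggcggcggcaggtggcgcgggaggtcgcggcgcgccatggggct
STRA6: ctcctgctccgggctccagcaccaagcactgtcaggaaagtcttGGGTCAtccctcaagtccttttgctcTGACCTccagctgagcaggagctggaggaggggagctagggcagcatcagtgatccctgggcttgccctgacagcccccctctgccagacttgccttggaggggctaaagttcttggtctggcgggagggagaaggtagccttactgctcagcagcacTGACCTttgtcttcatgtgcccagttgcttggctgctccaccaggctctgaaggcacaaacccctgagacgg
The RARB window lies at chr3:25428013-25428312 on the plus strand and is 1 of 4 windows of that gene. Its DR5 spans bases -53 to -37 from the start, on the gene's own strand. The CYP26A1 window, 1 of 2, lies at chr10:93073643-93073942 on the plus strand, and its DR5 spans -90 to -74 on the opposite strand. The STRA6 window lies at chr15:74212210-74212509 on the minus strand and is 1 of 5, of which 2 hold a core. Its 3 cores start at -206, -180 and -22. A match describes letters and not binding, and windows without a match hold only other letters. RARB and CYP26A1, the genes with the repeat, had unlike levels: RARB was well counted in every library, while CYP26A1 had between 2 and 4 counts.

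Ratios are given for the 25 genes with a mean of at least 50 counts over the 3 libraries, called measured. The 9 others are CRABP1, CRABP2, ALDH1A2, RDH5, CYP26A1, CYP26B1, RARRES1, RARRES2 and RARRES3. Closest to that limit were CRABP2 below it, with a mean of 42.0 counts, and DHRS4 above it, with a mean of 110 counts. A gene was called higher or lower where the ratio was at least 2-fold and its interval left out no change. In shPRAME over shEmpty 4 of the 25 genes were called higher (RARA, STRA6, LRAT and PDK4) and 2 lower (RXRG and ALDH1A1). Over all 11956 measured genes 10.2% were called higher, 9.08% lower and 19.3% in either direction, against 24.0% of these 25. In shBAP1 over shEmpty none of the 25 was called higher and 6 were called lower (RARG, RXRG, STRA6, ALDH1A3, PDK4 and BHLHE40), where all measured genes gave 5.53% higher, 8.56% lower and 14.1% in either direction. Of the calls over all genes in that comparison 39.2% were higher, and 49.8% under total-count scaling. In shPRAME over shBAP1 8 were called higher (RARG, STRA6, ALDH1A3, NRIP1, NCOA2, PDK4, BHLHE40 and TGM2) and 2 lower (ALDH1A1 and FABP5). There the background was 14.2% higher, 10.9% lower and 25.1% in either direction. The first comparisons share the shEmpty library and the third shares a library with each, so they are not independent of one another. The median log2 ratio of the 25 genes was 0.45, -0.32 and 0.65 in the 3 comparisons in that order, against -0.06, -0.03 and -0.06 over all measured genes. These medians leave out the 9 genes below the limit.

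**Figure D1:**
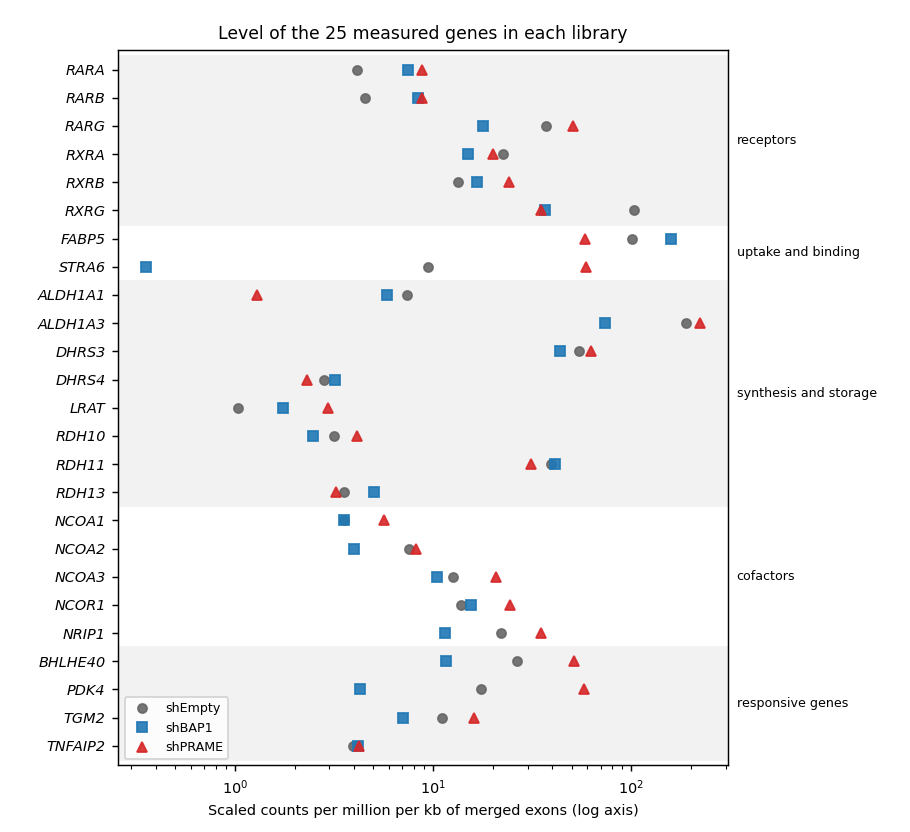
Scaled CPM per kilobase of merged exons (log axis) of the 25 measured genes, grouped by role, in the shEmpty (grey circles), shBAP1 (blue squares) and shPRAME (red triangles) libraries, 1 library each and so without error bars; the NCOA1 shEmpty point lies under the shBAP1 point. STRA6 spans the widest range, from 0.356 in shBAP1 to 59.3 in shPRAME, and ALDH1A3 is the highest in shEmpty and shPRAME.

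Ranking the libraries within each gene gave 12 genes with the order shPRAME, shEmpty, shBAP1 from high to low, an order that 22.4% of all 11956 measured genes had. They were RARG, STRA6, ALDH1A3, DHRS3, RDH10, NRIP1, NCOA1, NCOA2, NCOA3, PDK4, BHLHE40 and TGM2, so they include all the measured cofactors except NCOR1 and all the measured responsive genes except TNFAIP2. A further 6 (RARA, RARB, RXRB, LRAT, NCOR1 and TNFAIP2) were lowest in shEmpty and highest in shPRAME, as were 13.4% of all measured genes. DHRS4, RDH11, RDH13 and FABP5 ran the other way, highest in shBAP1 and lowest in shPRAME, the order of 23.6% of all measured genes. RXRG and ALDH1A1 were highest in shEmpty and lowest in shPRAME, and RXRA was highest in shEmpty and lowest in shBAP1. Several of these orders rest on differences within counting error, as the ratios below show.

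Among the receptors for retinoic acid, RARA and RARB were lower in shEmpty than in either knockdown library, while RARG was low in shBAP1. RARA, the broadly expressed alpha receptor, had 322 counts in shEmpty, 460 in shBAP1 and 671 in shPRAME. Its scaled level was 2.14-fold that of shEmpty in shPRAME (1.87 to 2.45) and 1.80-fold in shBAP1 (1.56 to 2.09). The call for RARA in shPRAME ended once a trend of the ratio with GC content and length was removed (log2 ratio 0.71 against 1.09). Its antisense gene RARA-AS1, which shares 13.4% of the exon bases of RARA, had 11, 9 and 89 counts, and whether counting used strand is not given in the sources used here. RARB, the receptor whose own promoter window holds the DR5 printed above, had 273 counts in shEmpty, 400 in shBAP1 and 517 in shPRAME. Its ratio to shEmpty was 1.94 in shPRAME (1.67 to 2.26) and 1.85 in shBAP1 (1.58 to 2.16), both just short of the fold limit. RARB passed that limit in shPRAME under upper-quartile scaling (log2 ratio 1.05) and with the GC and length trend removed (1.03), and in shBAP1 under total-count scaling (1.01). The 2 knockdown libraries did not differ in RARB beyond counting error, with a ratio of 1.05 (0.919 to 1.20).

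RARG, the gamma receptor prominent in skin, had 2382 counts in shEmpty, 907 in shBAP1 and 3186 in shPRAME. Its level was 2.08-fold lower in shBAP1 than in shEmpty (1.93 to 2.25), a call that ended under total-count scaling (log2 ratio -0.94), upper-quartile scaling (-0.98) and removal of the GC and length trend (-0.95). It was 1.37-fold that of shEmpty in shPRAME (1.30 to 1.45). Shares of counts within a library need no scaling between libraries. RARG made up 80.0% of the counts of the 3 RAR genes in shEmpty (78.5 to 81.4), 51.3% in shBAP1 (49.0 to 53.7) and 72.8% in shPRAME (71.5 to 74.2). RARA made up 10.8%, 26.0% and 15.3% of them in that order. The shBAP1 library thus had the most even mix of the 3 RAR genes by counts, from fewer RARG counts and larger shares of RARA and RARB together.

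The RXR genes encode the partners of the RAR proteins and of several other nuclear receptors. RXRG, the most restricted of the 3 in tissue distribution, had 4360 counts in shEmpty, 1225 in shBAP1 and 1451 in shPRAME. It was called lower in both knockdown libraries, 2.82-fold in shBAP1 (2.65 to 3.01) and 2.93-fold in shPRAME (2.76 to 3.11). The knockdown libraries themselves had a ratio of 0.962 (0.891 to 1.04), within counting error. RXRG was the only gene of the 25 called lower against shEmpty in both, and since both ratios divide by 1 shEmpty library, that library's value enters both. RXRB, broadly expressed, had 729 counts in shEmpty, 719 in shBAP1 and 1291 in shPRAME. Its ratio to shEmpty was 1.81 in shPRAME (1.66 to 1.99) and 1.24 in shBAP1, neither called. RXRA had 782, 412 and 675 counts, and its ratio to shEmpty was 0.665 in shBAP1 and 0.885 in shPRAME. RXRG accordingly made up 74.3% of the counts of the 3 RXR genes in shEmpty (73.1 to 75.4), 52.0% in shBAP1 (49.95 to 54.03) and 42.5% in shPRAME (40.8 to 44.1). The RXRB share was 12.4%, 30.5% and 37.8% in the same order. Per kilobase of exon, RXRG was the highest receptor gene in the shEmpty library (103 CPM per kilobase against 37.1 for RARG), and in the shPRAME library RARG (50.8) stood highest.

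**Figure D2:**
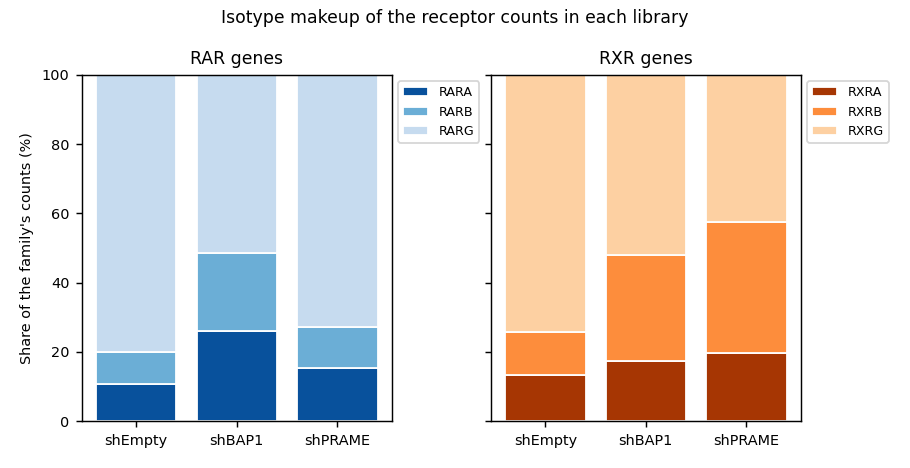
Share of each gene in the counts of its receptor family (percent, bars from 0 to 100), RAR genes at left and RXR genes at right, in the 3 libraries. RARG holds 80.0% in shEmpty and 51.3% in shBAP1, and RXRG holds 74.3% in shEmpty, 52.0% in shBAP1 and 42.5% in shPRAME.

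STRA6, the membrane receptor that takes up retinol from retinol-binding protein, went in opposite directions in the 2 knockdown libraries. It had 968 counts in shEmpty, 29 in shBAP1 and 5942 in shPRAME, which is 51.7, 1.95 and 325.0 CPM. Its level in shPRAME was 6.29-fold that of shEmpty (5.88 to 6.74), and its level in shBAP1 was 26.4-fold lower than in shEmpty (18.3 to 39.7). The 2 knockdown libraries differed 166-fold (116 to 249), an interval whose width comes from the 29 counts of shBAP1. With 1 CPM added to both values that log2 ratio of STRA6 was 6.79 in place of 7.38. Among the 11956 measured genes, STRA6 ranked 225 from the highest ratio in shPRAME over shEmpty, 43 from the lowest in shBAP1 over shEmpty and 27 from the highest in shPRAME over shBAP1. It took 1.93% of all counts of the 34 genes in shEmpty, 0.120% in shBAP1 and 9.06% in shPRAME. RBP4, the secreted retinol carrier that STRA6 binds, had 0 counts throughout, which allows up to 0.160, 0.202 and 0.164 CPM (3 counts).

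Inside the cell, CRABP2 carries retinoic acid to the RAR proteins and FABP5 is known to carry it, and fatty acids, to PPARD. FABP5 had 2447 counts in shEmpty, 3044 in shBAP1 and 1384 in shPRAME. Its ratio to shEmpty was 1.57 in shBAP1 (1.49 to 1.66) and its level in shPRAME was 1.73-fold below shEmpty (1.61 to 1.84). Neither passed the fold limit, while shPRAME was called lower than shBAP1 by 2.71-fold (2.54 to 2.89). CRABP2, below the count limit, had 14 counts in shEmpty, 9 in shBAP1 and 103 in shPRAME. Its ratio of shPRAME to shEmpty was 7.54 (4.30 to 14.3), a log2 ratio of 2.91 that came to 1.92 with 1 CPM added to both values, and shBAP1 did not differ from shEmpty beyond counting error (0.811, 0.310 to 2.01). CRABP2 made up 0.569% of the counts of CRABP2 and FABP5 together in shEmpty (0.311 to 0.953), 0.295% in shBAP1 (0.135 to 0.559) and 6.93% in shPRAME (5.69 to 8.34). FABP5 thus kept most counts of the pair in every library. CRABP1 had 4, 1 and 1 counts. PPARD, the receptor FABP5 is known to supply, had 280 counts in shEmpty, 251 in shBAP1 and 320 in shPRAME, with ratios to shEmpty of 1.13 and 1.17 for shBAP1 and shPRAME, both within counting error.

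ALDH1A3 was the main gene of retinoic acid synthesis in all 3 libraries. It had 19186 counts in shEmpty, 5914 in shBAP1 and 22101 in shPRAME. Its level was 2.57-fold lower in shBAP1 than in shEmpty (2.50 to 2.65), and shPRAME was 1.18-fold that of shEmpty (1.16 to 1.20), an interval that covers no variation between cultures. Per kilobase it was the highest of the 34 genes in shEmpty (189 CPM per kilobase) and shPRAME (223), and second to FABP5 in shBAP1 (73.4 against 158). Another gene that the annotation places on the opposite strand shares 29.2% of its exon bases. ALDH1A1, an enzyme with the same activity, was far lower and moved otherwise. It had 291 counts in shEmpty, 184 in shBAP1 and 50 in shPRAME, so that shPRAME was 5.68-fold lower than shEmpty (4.20 to 7.83) and 4.53-fold lower than shBAP1 (3.30 to 6.33). The ratio of shBAP1 to shEmpty was 0.798 (0.660 to 0.963), not called. ALDH1A2, the main enzyme of the early embryo, had 0 counts in all 3 libraries. ALDH1A1 gave 1.49% of the counts of the 3 ALDH1A genes in shEmpty, 3.02% in shBAP1 and 0.226% in shPRAME.

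The dehydrogenases and reductases that interconvert retinol and retinal held closer to the control, and none of the 5 measured was called in any comparison. DHRS3, which reduces retinal to retinol, had 1749 counts in shEmpty, 1113 in shBAP1 and 1970 in shPRAME, with ratios to shEmpty of 0.803 and 1.15 for shBAP1 and shPRAME. RDH10, which oxidises retinol to retinal, had 246, 152 and 312 counts, with ratios of 0.780 and 1.30. RDH11 had 1908, 1591 and 1479 counts, RDH13 151, 169 and 133, and DHRS4 122, 110 and 97. The ratios of these 3 genes to shEmpty lay between 0.794 and 1.41. DHRS4 is uncertain, because its close copies DHRS4L2 (124, 104 and 71 counts) and DHRS4L1 (16, 13 and 19) may share reads with it. RDH5, below the count limit, had 4, 0 and 25 counts, with 61.7% of its exon bases shared with the read-through gene BLOC1S1-RDH5 (19, 15 and 5 counts). LRAT, which esterifies retinol for storage, had 97 counts in shEmpty, 130 in shBAP1 and 270 in shPRAME. It was 2.85-fold higher in shPRAME than in shEmpty (2.25 to 3.64), and shBAP1 was 1.69-fold that of shEmpty (1.29 to 2.22), not called. LRAT and STRA6 were both called higher in shPRAME, but in shBAP1 their ratios to shEmpty lay on opposite sides of 1.

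The genes of breakdown were close to absent. CYP26A1, whose window holds a DR5 and which is known as one of the most inducible targets of retinoic acid, had 2 counts in shEmpty, 4 in shBAP1 and 3 in shPRAME. CYP26B1, of the same family, had 1, 5 and 0 counts. The intervals of CYP26A1 included no change in all 3 comparisons, as did those of CYP26B1 against shEmpty. For CYP26B1 in shPRAME over shBAP1, 0 against 5 counts, the interval of the ratio ended at 0.886, short of no change, but the gene is below the count limit and was not called. RARRES1 had 2 counts in each library, while RARRES2 and RARRES3 had 0 in all.

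The 5 cofactors were all measured, and none was called against shEmpty in either knockdown library. NRIP1, which encodes the ligand-dependent corepressor RIP140 and is itself known to be induced by retinoic acid, had 3214 counts in shEmpty, 1321 in shBAP1 and 4987 in shPRAME. Its level was 1.59-fold that of shEmpty in shPRAME (1.52 to 1.66) and 1.93-fold below it in shBAP1 (1.81 to 2.06), so that shPRAME was called 3.07-fold higher than shBAP1 (2.88 to 3.26). NCOR1, the corepressor bound by receptors without ligand, had 2886, 2552 and 4939 counts, with a ratio to shEmpty of 1.75 in shPRAME (1.67 to 1.84) and 1.12 in shBAP1. The p160 coactivators NCOA1, NCOA2 and NCOA3 are recruited by receptors with ligand. NCOA1 had 504, 398 and 775 counts and a ratio to shEmpty of 1.58 in shPRAME (1.41 to 1.77). NCOA3 had 1884, 1235 and 3030 counts and a ratio of 1.65 in shPRAME (1.56 to 1.75). NCOA2 had 1192, 502 and 1265 counts, and was 1.09-fold that of shEmpty in shPRAME but 1.88-fold below it in shBAP1 (1.69 to 2.09). In shPRAME over shBAP1 NCOA2 was called at 2.05-fold (1.84 to 2.27), a call that ended under total-count scaling (log2 ratio 0.95) and with the GC and length trend removed (0.87). NCOA3 lay at 1.99-fold in the same comparison (1.86 to 2.13) and was called there under upper-quartile (log2 ratio 1.01) and DESeq2 scaling (1.02). All 5 cofactors had ratios to shEmpty above 1 in shPRAME, coactivators and corepressors alike; for NCOA2 the sign turned when the GC and length trend was removed.

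**Figure D3:**
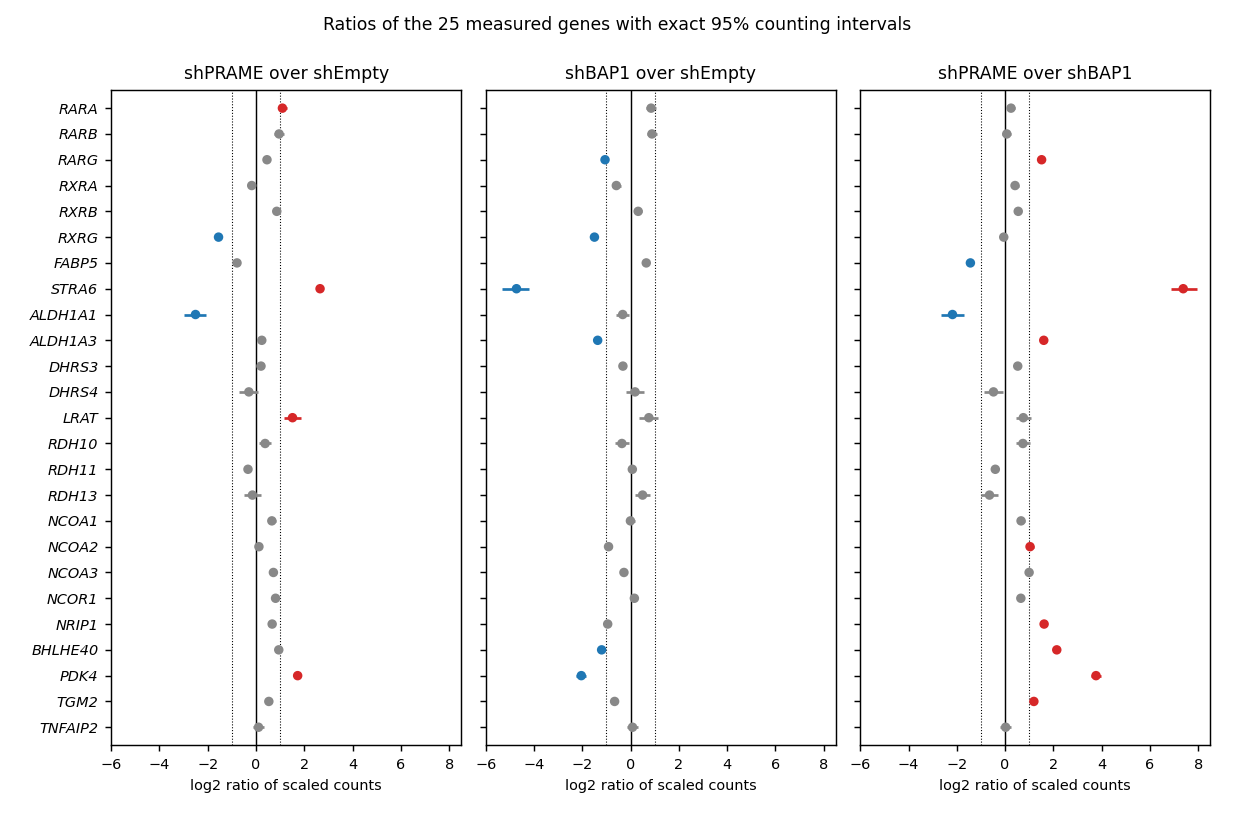
The log2 ratio of scaled counts for the 25 measured genes in the 3 comparisons, with horizontal bars for the exact 95% counting interval, dotted lines at 2-fold, and red or blue points for genes called higher or lower. STRA6 reaches 2.65 in shPRAME over shEmpty, -4.73 in shBAP1 over shEmpty and 7.38 in shPRAME over shBAP1, while most other genes lie within the dotted lines against shEmpty.

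Of the genes known to respond to retinoic acid, PDK4 and BHLHE40 had the order of STRA6 with a smaller range. PDK4, a kinase that restrains pyruvate dehydrogenase and also answers to PPAR receptors, had 1173 counts in shEmpty, 226 in shBAP1 and 3786 in shPRAME. It was 3.31-fold higher in shPRAME than in shEmpty (3.10 to 3.53) and 4.11-fold lower in shBAP1 (3.56 to 4.76), and the knockdown libraries differed 13.6-fold (11.9 to 15.6). PDK4 and STRA6 were the only genes of the 25 called higher in shPRAME and lower in shBAP1 against shEmpty. BHLHE40, a transcriptional repressor of the clock and of differentiation, had 1731, 598 and 3247 counts. It was 2.29-fold lower in shBAP1 than in shEmpty (2.09 to 2.52), and its 1.92-fold ratio in shPRAME (1.81 to 2.04) was short of the fold limit but passed it under upper-quartile scaling (log2 ratio 1.03). TGM2, the tissue transglutaminase, had 1059, 531 and 1494 counts, with ratios of 1.45 in shPRAME and 1.58-fold below shEmpty in shBAP1. TGM2 was called in shPRAME over shBAP1, at 2.28-fold (2.07 to 2.53), a call that ended with the GC and length trend removed (log2 ratio 0.91). TNFAIP2 had 347, 291 and 364 counts and ratios of 1.08 and 1.06 to shEmpty in shPRAME and shBAP1, both within counting error.

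Further genes of the pathway were taken from 4 lists that do not overlap the 34 genes. To set beside their counts, 10.2% of all measured genes were called higher and 9.08% lower in shPRAME over shEmpty. These shares were 5.53% and 8.56% in shBAP1 over shEmpty, and 14.2% and 10.9% in shPRAME over shBAP1. Of 31 other genes of retinoid metabolism and transport 8 were measured, and in shPRAME over shEmpty none was called higher and 1 lower. That gene was LRP2, an endocytic receptor that takes up retinol-binding protein, with 128 counts in shEmpty, 189 in shBAP1 and 14 in shPRAME, 8.92-fold lower in shPRAME than in shEmpty (5.13 to 16.8). The gene called in shBAP1 over shEmpty was LPL, lipoprotein lipase, with 9596, 1120 and 15311 counts, 6.79-fold lower in shBAP1 (6.38 to 7.23). In shPRAME over shBAP1 LPL (11.1-fold) and DGAT1 (2.12-fold) were called higher and LRP2 lower. The medians of the 8 genes were 0.10, -0.10 and 0.12 in the 3 comparisons, so this list as a whole lay near the medians of all genes. Calls in either direction were 12.5%, 12.5% and 37.5% of the 8, against 19.3%, 14.1% and 25.1% of all measured genes.

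All 25 other receptor cofactors were measured. In shPRAME over shEmpty 1 was called higher and 3 lower, with a median of -0.04. NCOA7, a coactivator, had 1014 counts in shEmpty, 871 in shBAP1 and 4589 in shPRAME, and was 4.64-fold higher in shPRAME (4.33 to 4.97). KAT2B, an acetyltransferase recruited by receptors, had 1157, 1462 and 246 counts and was 4.59-fold lower in shPRAME (3.996 to 5.288). EZH2 and EED, subunits of the Polycomb repressive complex with which PRAME is known to act, were 2.90-fold (2.63 to 3.20) and 2.10-fold (1.86 to 2.37) lower in shPRAME. SUZ12, a further subunit on the list, was not called, with a ratio to shEmpty of 0.860 in shPRAME (0.806 to 0.917). In shBAP1 over shEmpty none was called higher and 1 lower, TBL1X, a subunit of the NCOR complex, at 2.47-fold, with a median of -0.20. In shPRAME over shBAP1 3 were called higher, among them NCOA7 (4.28-fold) and TBL1X (2.42-fold), and 2 lower, KAT2B (7.32-fold) and EZH2 (2.01-fold).

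Of 19 other nuclear receptors that pair with RXR or bind similar elements 14 were measured. In shPRAME over shEmpty 5 were called higher and 1 lower, with a median of 0.32. RORB, an orphan receptor, had 312 counts in shEmpty, 3 in shBAP1 and 1208 in shPRAME, and was 3.97-fold higher in shPRAME than in shEmpty (3.50 to 4.51). PPARG, the lipid-sensing partner of RXR, had 266, 69 and 843 counts, 3.25-fold higher in shPRAME (2.83 to 3.74) and 3.05-fold lower in shBAP1 (2.34 to 4.04). NR1H3, a liver X receptor, had 41, 54 and 126 counts and was 3.15-fold higher in shPRAME. RORA had 143, 15 and 32 counts and was 4.36-fold lower in shPRAME. In shBAP1 over shEmpty none was called higher and 4 lower, with a median of -0.07: RORB by 82.4-fold (27.9 to 402, on 3 counts), THRB by 12.3-fold (6.31 to 27.5), RORA by 7.55-fold (4.43 to 13.8) and PPARG. THRB, a thyroid hormone receptor, had 140 counts in shEmpty, 9 in shBAP1 and 288 in shPRAME. RORB, THRB and PPARG thus had the order of STRA6 and PDK4 and were called in opposite directions in the 2 knockdown libraries. They were also the 3 genes of the list called higher in shPRAME over shBAP1. Calls in either direction were 42.9%, 28.6% and 21.4% of the 14 in the same order of comparisons. All measured genes gave 19.3%, 14.1% and 25.1%.

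Of 30 other genes known to respond to retinoic acid 20 were measured. In shPRAME over shEmpty 7 were called higher and 2 lower, with a median of 0.80. IGFBP6 (6.21-fold, 4.59 to 8.55), IGFBP3 (5.71-fold, 5.41 to 6.04) and BTG2 (5.07-fold, 4.17 to 6.20) had the largest ratios, and NAV2 and ETS1 were both 2.85-fold lower. IGFBP3, which binds insulin-like growth factors, had 1474 counts in shEmpty, 472 in shBAP1 and 8219 in shPRAME. In shBAP1 over shEmpty 1 was called higher, NEDD9 at 3.67-fold, and 2 lower, IGFBP3 at 2.47-fold and HIC1 at 2.04-fold, with a median of 0.29. In shPRAME over shBAP1 6 were called higher and 1 lower, led by IGFBP3 (14.1-fold), IGFBP6 (7.94-fold) and HIC1 (4.50-fold), and the gene called lower was ETS1 (4.88-fold). The list holds Hox genes, which pattern the body axis. Among them HOXA5 (3.98-fold) and HOXB3 (2.05-fold) were called higher in shPRAME over shEmpty, and HOXB4 and HOXB2 were not called, with ratios of 1.27 and 1.83.

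**Figure D4:**
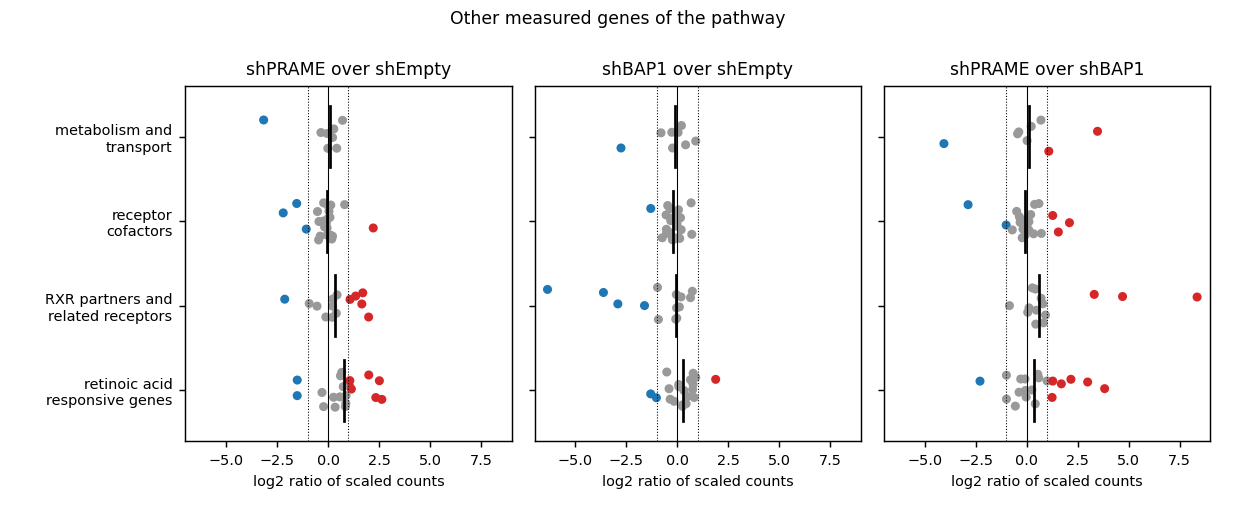
The log2 ratio of scaled counts of the measured genes in 4 further lists (8, 25, 14 and 20 genes from top to bottom) for the 3 comparisons; 1 point is 1 gene, red or blue where called higher or lower, with thick bars at each list's median and dotted lines at 2-fold. The medians of shPRAME over shEmpty run from -0.04 for cofactors to 0.80 for responsive genes, and the leftmost and rightmost points are RORB in shBAP1 over shEmpty and in shPRAME over shBAP1.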

How the data were processed

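RNA-seq counts of 3 A375SM populations, 1 library each, were used. The labels' protocols name TRIzol extraction, mRNA purification, a strand-specific NEBNext Ultra II kit and paired-end NovaSeq runs with a read length of 100. The authors deposited raw read counts for each gene. TopHat, Cufflinks, edgeR and FastQC appear in the submitters' processing notes, with the build hg19 (GRCh37). How reads were counted, on which annotation and whether by strand is not given in the sources used here.

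The 34 genes and the further gene lists were chosen with earlier results of these data known, so no list is independent evidence. Scaling used the TMM factors of edgeR (version 4.0.16, in R 4.3.3): 0.964, 1.05 and 0.991 for shEmpty, shBAP1 and shPRAME. Log2 ratios had no pseudocount. Intervals are exact 95% conditional binomial (Clopper-Pearson) intervals, computed with scipy 1.17.1, as are those of shares. The count minimum was a mean of 50 over the 3 libraries. A gene was called where its ratio was at least 2-fold and the interval left out no change. Reads carry no molecular identifiers, so intervals and the floor of 3 counts for a gene at 0 cover counting error only. From each further list and comparison, the text names up to 3 genes with the largest absolute log2 ratio among those called. Some others were chosen after their values were seen (PPARD, RBP4, EED, SUZ12, NR1H3, NAV2, HOXA5, HOXB2, HOXB3, HOXB4, overlapping genes and copies). Values of some genes of these lists are not reported here. Levels per kilobase used the merged exon length of GENCODE v29, matched by symbol for all 34 genes, and overlaps came from the same annotation. Promoter windows were taken from RefSeq on GRCh38.p14. Of the 34 genes 29 matched a window, and TGM2, RARRES3, FABP5, NCOA2 and RDH10 did not. Alternatives were scaling by DESeq2 (1.42.0), by upper quartiles or by total counts, a pseudocount of 1 CPM, other count minimums and fold limits, and removal of a lowess trend (span 0.3, statsmodels 0.14.6) with GC content and length. Every count table row named a gene. The ratio and call steps were tested on simulated data.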

Additional observations from a re-analysis of the deposited data

How the results depend on the processing

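No paired analysis was possible because each group has 1 library, and for the same reason no library could be left out. In shPRAME over shEmpty, 11 genes were called higher at a limit of 1.5-fold and 2 at 3-fold. The shares of all measured genes called higher there were 19.4% and 4.95%. The number called lower was 1 at 3-fold (3.34% of all measured genes) and 1 with a minimum mean count of 200 (8.71% of all genes meeting it). The median log2 ratio was 0.30 with the GC and length trend removed. In shBAP1 over shEmpty, 1 gene (RARB) was called higher under total-count scaling and 4 at 1.5-fold, and 10 were called lower at 1.5-fold and 2 at 3-fold. Of all 11956 measured genes, 829 were called higher under total-count scaling and 1522 at 1.5-fold. Lower calls over all measured genes numbered 2123 at 1.5-fold and 470 at 3-fold. In shPRAME over shBAP1, 13 were called higher at 1.5-fold and 5 at 3-fold, and 1 was called lower at 3-fold and 1 with a minimum of 200. Of all measured genes, 2844 were called higher at 1.5-fold and 920 at 3-fold, and 441 were called lower at 3-fold. With the minimum of 200, 959 of all genes meeting it were called lower. In shBAP1 over shEmpty, all measured genes had a median log2 ratio of 0.09 under total-count scaling against -0.03. Of 606 single-gene values under the alternatives, 560 stayed within their counting interval and 46 left it, and 13 had another call, all given beside the results. The 560 include every value under the other count minimums. Those values repeat the main ratios and could not leave their intervals, so the 560 overstates how many held under a real change. No called value changed sign. The cause of these changes was not tested. With 29 counts for STRA6 and 3 for RORB in shBAP1, depth limits the precision of those folds.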

Other observations

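The 31 windows with a DR5 belong to 29 symbols, of which 17 were in the count table and 6 were measured: RARB, ATXN1L, CFLAR, CYB5R2, PANK2 and PHF8. None of the 6 was called higher in any of the 3 comparisons. Over all measured genes 10.2%, 5.53% and 14.2% were called higher in shPRAME over shEmpty, shBAP1 over shEmpty and shPRAME over shBAP1. The shares called lower were 9.08%, 8.56% and 10.9%. A list of 6 genes is too short to be told apart from such shares. CYB5R2, a cytochrome b5 reductase gene, was called lower in shPRAME over shEmpty (log2 ratio -3.19) and in shPRAME over shBAP1 (-2.53), with 429 counts in shEmpty, 215 in shBAP1 and 46 in shPRAME. The median log2 ratio of the 6 was -0.12 in shPRAME over shEmpty, 0.25 in shBAP1 over shEmpty and -0.46 in shPRAME over shBAP1. Below the count limit, BATF2 had 5, 75 and 23 counts in shEmpty, shBAP1 and shPRAME, and TRIM31 had 0, 0 and 14. These genes were found by the letters of their windows alone, and no binding was measured.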
